A study of Homo sapiens with 6 samples.

Results

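The genes described here encode voltage-gated calcium and sodium channels and potassium channels, with the auxiliary subunits that carry the same symbols. They were taken from the deposited gene table by symbol, as KCN, CACN (A, B or G) or SCN followed by letters and numbers without a hyphen. This gave 135 of 61806 genes, made up of 95 potassium, 26 calcium and 14 sodium channel genes. RNA came from A549, a wild-type human lung adenocarcinoma epithelial line, after Japoflavone B at a dose of 40 whose unit the labels omit, or after DMSO, its solvent. Both groups were treated for 24 h after seeding, and each has 3 poly(A) libraries. The treated columns carry the title LE-532, a code left unexplained, while their treatment label is Japoflavone B. The comparison asks how channel mRNA in treated cells differed from that in solvent cells, and nothing in the labels says that the 3 libraries of a group were separate cultures, so p-values measure the spread between libraries, which may be technical.

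A voltage-gated channel has a pore-forming subunit, which senses the membrane voltage, and auxiliary subunits that set its gating and its number at the cell surface. Potassium channels hold the resting potential of nearly all cells, and in epithelia they also drive chloride and water transport and the regulation of cell volume. Calcium and sodium channels of these families are best known from nerve and muscle, and transcripts of several of them are found in cancer cell lines.

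Most of these genes were weakly transcribed in A549. No count was found in any of the 6 libraries for 22 genes, 28 had 1 to 10 counts over all libraries, and 28 more fell below the count minimum (filterByExpr, minimum count 10). The other 57 were tested (37 potassium, 15 calcium, 5 sodium). The mean level reached 1 FPKM, a count scaled to exonic length and library total, in 15 genes after Japoflavone B and in 21 after DMSO. The FPKM of all 135 genes summed to 63.1 ± 0.201 after Japoflavone B and to 100 ± 0.388 after DMSO (SD, n = 3 each). In CPM, counts relative to the library total corrected by trimmed-mean factors and called scaled CPM below, the sums were 414 ± 3.03 after Japoflavone B and 582 ± 6.95 after DMSO. CACNA2D1 alone took 5.71% ± 0.0947 of the summed FPKM after Japoflavone B and 17.5% ± 0.841 after DMSO. Without it the sums were 59.5 ± 0.246 FPKM after Japoflavone B and 82.9 ± 0.637 FPKM after DMSO. Those sums still held CACNG4, with a mean of 2.76 FPKM after Japoflavone B and 11.5 FPKM after DMSO. They also held CACNG6, with a mean of 0.763 FPKM after Japoflavone B and 15.04 FPKM after DMSO. A sum without these genes as well was not taken, so a fall across the remaining channel genes is not shown. By ion, calcium channel genes summed to 30.3 ± 0.657 FPKM after Japoflavone B and 63.6 ± 0.310 after DMSO. Potassium channel genes summed to 30.7 ± 0.761 and 33.0 ± 0.533 FPKM in that order, and sodium channel genes to 2.14 ± 0.0839 and 3.85 ± 0.179. Most of the difference thus lay in the calcium channel genes, which include CACNA2D1, CACNG4 and CACNG6. In bulk RNA, fewer cells with a transcript and less of it per cell cannot be told apart.

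Of the 57 tested genes, 36 passed the test (edgeR quasi-likelihood, Benjamini-Hochberg adjusted p under 0.05 over all 16082 genes tested), or 63.2%, where 70% of all genes did. Treated cells had higher levels of 12, or 21.1% against 34.7% of all genes, and lower levels of 24, or 42.1% against 35.4%. The shares of single classes below stand against these same shares of all genes. Classes hold few tested genes, and their differences from all genes were not tested. Changes of at least 2-fold were found in 26 genes, or 45.6%, against 24.7% of all genes. Of these, 8 were higher (14%, against 9.67% of all genes) and 18 lower (31.6%, against 15%). All genes were not matched to the channel genes for level, and the part of low counts in these shares was not tested. The median log2 fold change was -0.31 over the 57 genes and -0.00 over all genes tested. Groups did not overlap in scaled CPM in 38 of the 57 genes (66.7%), against 72.4% of all genes, and KCNAB1 was the single gene past the threshold whose groups overlapped. For each of the 35 genes past the threshold without overlap, an exact two-sided permutation test gave p = 0.1, the smallest that 3 against 3 libraries allow.

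**Figure D1:**
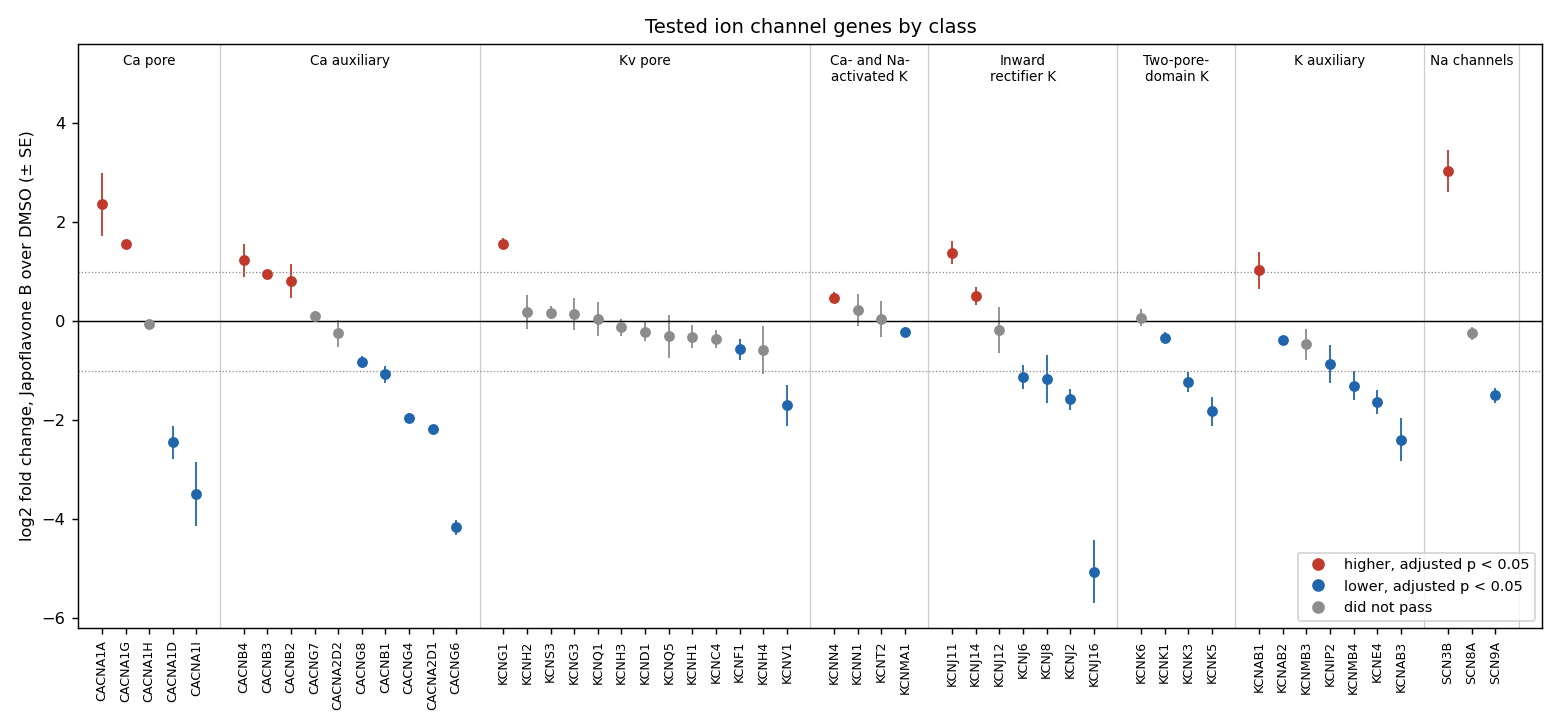
Log2 fold change of Japoflavone B over DMSO (points, ± SE derived from the edgeR F statistic) for the tested channel genes reported here. Genes are grouped by class along the horizontal axis and coloured by outcome, and dotted lines mark 2-fold. Points below zero outnumber those above it, from SCN3B at 3.03 to KCNJ16 at -5.07.

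Libraries held 15733769 to 19822366 counts after Japoflavone B and 15298531 to 21744407 after DMSO. Mitochondrial genes took 8.43% ± 0.127 of counts after Japoflavone B and 4.36% ± 0.371 after DMSO. Of 7 epithelial genes abundant in A549 (KRT8, KRT18, KRT7, EPCAM, CDH1, AKR1B10, ALDH1A1), 6 were lower after Japoflavone B, with EPCAM as the exception. Their summed level was 1790 to 1852 FPKM after Japoflavone B and 5624 to 6001 FPKM after DMSO. Of 7 neuronal markers, SYP, SYT1 and NEFL rose and SNAP25 and RBFOX3 fell; STMN2 had no count, and ELAVL3 had 0 after Japoflavone B and 2 after DMSO. The neuronal list summed to 10.0 to 11.8 FPKM after Japoflavone B and 14.3 to 15.4 FPKM after DMSO. In muscle, TNNT2, MYH6, MYH7 and ACTN2 had no count, TTN fell with groups that overlap in scaled CPM, and CKM was below the count minimum. The muscle list summed to 0.11 to 0.29 FPKM after Japoflavone B and 0.04 to 0.12 FPKM after DMSO. Alveolar type 2, leukocyte and endothelial markers summed to at most 0.36, 0.18 and 0.07 FPKM in any library. Fibroblast markers, mainly COL1A1, summed to 0.49 to 0.61 FPKM after Japoflavone B and 4.59 to 5.11 FPKM after DMSO. The part of these shifts in the channel results was not tested.

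Promoter sequences, 250 bases before to 50 after the transcription start, are shown for 4 genes at the extremes of the results below. CACNA2D1 and CACNG6 had the highest FPKM among the genes that fell, KCNK5 fell most among the 4 tested tandem-pore potassium channels, and KCNN4 had the highest FPKM of the potassium channel genes and rose. The sequences are from RefSeq on GRCh38.p14 and run 5′ to 3′ on the transcribed strand. Capitals mark the GC box GGGCGG, read on either strand, and in KCNN4 also the E-box CACGTG. The CACNA2D1 promoter lies at chr7:82443907-82444206 on the minus strand and the CACNG6 promoter at chr19:53991387-53991686 on the plus strand. The KCNK5 promoter lies at chr6:39229426-39229725 and the KCNN4 promoter at chr19:43780924-43781223, both on the minus strand.
CACNA2D1: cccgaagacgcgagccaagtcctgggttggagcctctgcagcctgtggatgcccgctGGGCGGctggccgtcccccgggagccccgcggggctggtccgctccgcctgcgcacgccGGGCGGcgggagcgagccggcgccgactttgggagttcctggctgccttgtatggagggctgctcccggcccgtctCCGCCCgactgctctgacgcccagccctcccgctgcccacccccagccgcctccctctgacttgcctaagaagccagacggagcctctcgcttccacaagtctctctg
CACNG6: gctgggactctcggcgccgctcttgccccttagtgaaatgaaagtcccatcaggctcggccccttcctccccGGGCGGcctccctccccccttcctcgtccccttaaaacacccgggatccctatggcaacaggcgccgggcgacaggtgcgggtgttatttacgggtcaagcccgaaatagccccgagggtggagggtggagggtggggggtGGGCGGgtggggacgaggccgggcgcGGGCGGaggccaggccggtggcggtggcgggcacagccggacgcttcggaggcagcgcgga
KCNK5: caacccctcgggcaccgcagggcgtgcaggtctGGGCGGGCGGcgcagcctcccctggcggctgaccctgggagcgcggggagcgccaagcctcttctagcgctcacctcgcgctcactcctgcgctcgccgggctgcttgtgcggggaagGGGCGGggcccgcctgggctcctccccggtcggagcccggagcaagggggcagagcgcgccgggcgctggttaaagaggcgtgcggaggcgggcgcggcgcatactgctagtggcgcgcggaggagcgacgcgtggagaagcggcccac
KCNN4: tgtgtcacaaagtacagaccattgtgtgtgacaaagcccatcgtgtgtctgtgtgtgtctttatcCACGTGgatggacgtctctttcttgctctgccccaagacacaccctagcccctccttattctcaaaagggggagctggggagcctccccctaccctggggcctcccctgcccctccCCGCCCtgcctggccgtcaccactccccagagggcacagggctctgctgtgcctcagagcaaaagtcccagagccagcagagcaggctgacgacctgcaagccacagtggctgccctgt
The first 3 promoters each hold 3 GC boxes, of which a pair overlaps in KCNK5, and the KCNN4 promoter holds 1 GC box and 1 E-box.

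Promoters were matched by symbol for 97 of the 135 genes, giving 149 promoters, since a gene can have several. The motifs searched on both strands were the GC box, the CCAAT box CCAAT, the TATA box TATAAA, the AP-1 site TGANTCA, the cyclic AMP response element TGACGTCA, the E-box CACGTG and the p53 half-site. A GC box was found in 45.0% of all 35116 promoters in the table and in 59.7% of the 67 promoters of tested channel genes. It was in 7 of 20 promoters of the 7 matched genes that rose, or 35%, and in 15 of 24 promoters of the 17 matched genes that fell, or 62.5%. Genes that rose but had no matched promoter included CACNA1G, KCNG1, KCNJ11 and SCN3B, and such genes that fell included CACNG4, CACNG8 and KCNE4. Most of the 20 promoters belong to CACNB2, CACNB4 and KCNAB1, which did not pass under every alternative. These shares therefore do not describe all channel genes that rose or fell. Counted by gene, 5 of the 7 that rose (71.4%) and 14 of the 17 that fell (82.4%) had a GC box in at least 1 promoter. So did 32 of the 38 matched tested channel genes (84.2%) and 48.3% of all 27305 genes in the table. The gap between risers and fallers is thus smaller than by promoter, and both lie below the share of all matched tested channel genes. Median GC content by promoter was 55% for genes that rose, 70% for genes that fell and 58.7% in all promoters. Genes with several promoters weigh more in these medians, and no median by gene was taken. Among genes that rose, the promoters of KCNAB1 held 39% to 49% GC. The single promoters of CACNA1A, KCNJ14 and KCNN4, which also rose, held 60.7%, 59.7% and 60.7%. The E-box was in 7.26% of all promoters and 8.96% of those of tested channel genes. Promoters of the same gene overlap or share sequence, so these shares are descriptions of the windows and carry no test.

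Pore-forming subunits of calcium channels were led by the T-type genes, which open near the resting potential. CACNA1G (chr17:50560715-50627474, GRCh38, plus strand) rose, CACNA1H (chr16:1153106-1221771) did not pass the test, and CACNA1I (chr22:39570753-39689735) fell. CACNA1G stood at 52.2, 48.7 and 53.6 scaled CPM in the Japoflavone B libraries and at 16.5, 17.5 and 18.4 in the DMSO libraries. All 3 treated libraries lay far above the solvent ones, 2.95-fold, with a log2 fold change of 1.56 ± 0.08 (SE; edgeR adjusted p = 4.43e-16). CACNA1H, at 30.7, 26.2 and 26.8 scaled CPM after Japoflavone B and 25.0, 30.6 and 32.5 after DMSO, overlapped between groups (-0.07 ± 0.09, adjusted p = 0.539). Per exonic base, the ratio of CACNA1G to CACNA1H within a library was 1.59 ± 0.127 after Japoflavone B and 0.514 ± 0.0451 after DMSO. The more abundant of the pair was thus CACNA1G in treated libraries and CACNA1H in solvent libraries. CACNA1I had 0, 1 and 3 counts after Japoflavone B and 16, 26 and 14 after DMSO (log2 fold change -3.49 ± 0.65, adjusted p = 2.69e-05); its log2 fold change was -2.86 without Japoflavone B library 1 and -4.70 without Japoflavone B library 3.

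The other calcium pore genes had few reads. CACNA1D, an L-type pore subunit, was at 0.625, 0.466 and 0.449 scaled CPM after Japoflavone B and at 3.11, 3.09 and 2.29 after DMSO, 5.46-fold lower (edgeR adjusted p = 2.33e-07). It overlaps DCP1A and CHDH on the opposite strand, which held 4505 and 613 counts over the 6 libraries against 200 for CACNA1D. CACNA1A, the P/Q-type pore subunit, had 15, 16 and 10 counts after Japoflavone B and 0, 8 and 1 after DMSO, and passed the test as higher (log2 fold change 2.36 ± 0.63, adjusted p = 0.00169). Its size rested on the solvent libraries: 1.76 without DMSO library 1 and 4.55 without DMSO library 2. Its mean level stayed at or below 0.0167 FPKM in both groups. The summed level of all 10 calcium pore genes was 8.14 ± 0.473 FPKM after Japoflavone B and 5.59 ± 0.56 FPKM after DMSO (SD, n = 3 each), of which CACNA1G made up 4.93 ± 0.276 FPKM after Japoflavone B and 1.80 ± 0.0907 FPKM after DMSO.

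**Figure D2:**
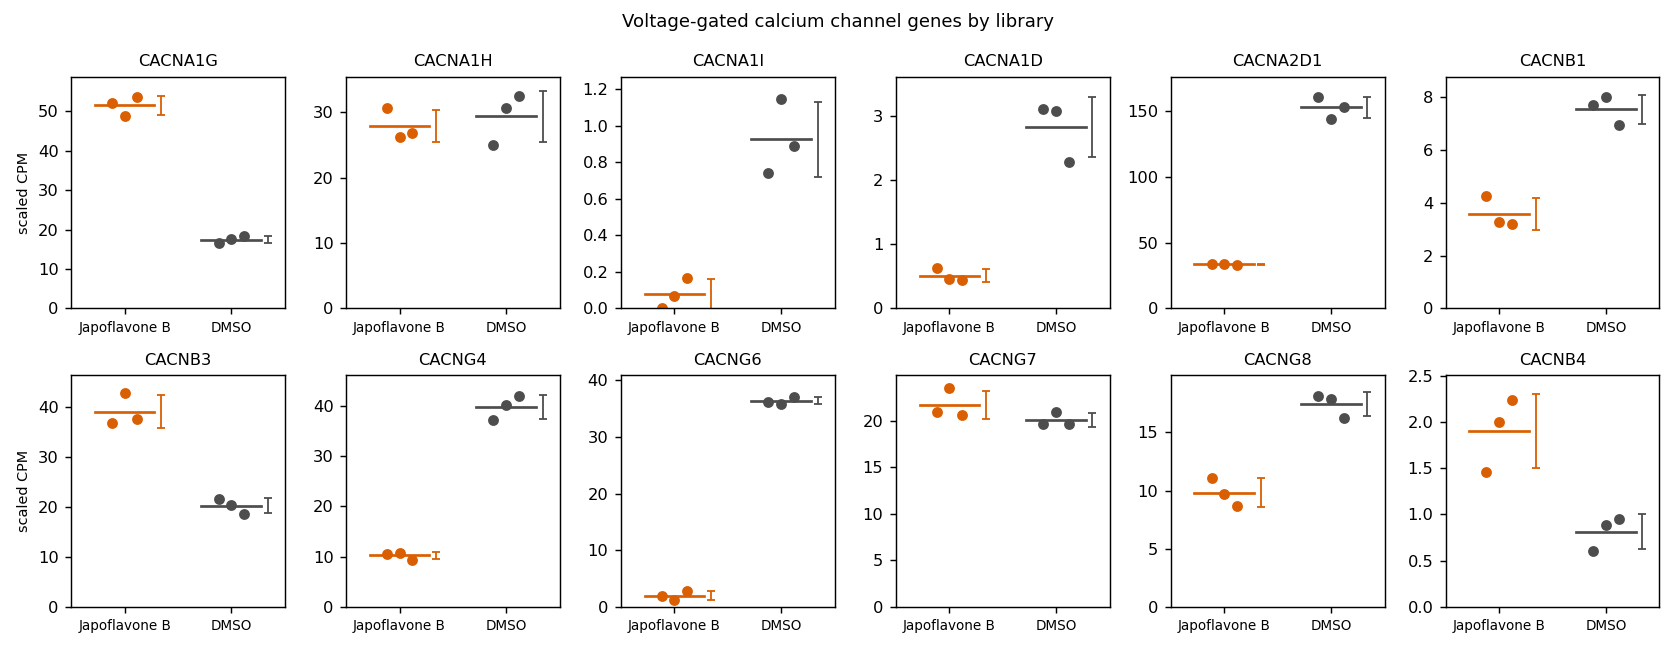
Scaled CPM of 12 calcium channel genes in each library (points), with group means (lines) and SD (bars, n = 3), Japoflavone B in orange and DMSO in grey. CACNA1G and CACNB3 lie higher after Japoflavone B, CACNA2D1, CACNG4 and CACNG6 lie lower, and the groups of CACNA1H and CACNG7 overlap.

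Auxiliary subunits of calcium channels summed to 22.2 ± 0.787 FPKM over 16 genes after Japoflavone B, against 58.0 ± 0.304 FPKM after DMSO, where they held most of the FPKM of all channel genes. Of 10 tested, 3 rose (30%) and 5 fell (50%). CACNA2D1 (chr7:81946444-82443777, minus strand) encodes the extracellular α2δ subunit, the binding site of gabapentin. It measured 34.0, 33.7 and 33.2 scaled CPM in the Japoflavone B libraries, against 161, 144 and 153 in the DMSO libraries. By FPKM it was the most abundant channel gene in each DMSO library, and CACNG7 was in each Japoflavone B library. The fall was 4.55-fold (log2 fold change -2.19 ± 0.06, edgeR adjusted p = 1.11e-21), the smallest adjusted p of the 57 genes. CACNA2D2, a further α2δ gene, averaged 0.307 FPKM after Japoflavone B and 0.387 FPKM after DMSO and did not pass the test (adjusted p = 0.432).

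The γ subunits did not move together. CACNG7 (chr19:53909278-53943950), CACNG8 (chr19:53962937-53990215) and CACNG6 (chr19:53991637-54012666) follow each other on the plus strand of GRCh38. CACNG6, related to the muscle γ subunit, measured 1.93, 1.26 and 2.75 scaled CPM after Japoflavone B and 36.2, 35.9 and 37.1 after DMSO. It fell 18.0-fold (log2 fold change -4.17 ± 0.14, edgeR adjusted p = 7.79e-20). CACNG8 was at 11.1, 9.71 and 8.69 scaled CPM after Japoflavone B and 18.1, 17.9 and 16.2 after DMSO, a smaller fall of 1.77-fold (adjusted p = 4.02e-07). CACNG7 measured 21.0, 23.5 and 20.6 after Japoflavone B and 19.6, 20.9 and 19.7 after DMSO and did not pass the test (adjusted p = 0.305). CACNG7 and CACNG8 encode proteins that also guide AMPA-type glutamate receptors in neurons. Per exonic base, CACNG6 was at 0.106 ± 0.0455 times CACNG7 in treated libraries and at 2.08 ± 0.103 times in solvent libraries, while CACNG8 was at 0.147 ± 0.0208 times CACNG7 in treated libraries and at 0.281 ± 0.0165 times in solvent libraries. The 3 neighbours thus ran from a small difference that missed the threshold to the largest fall of any tested calcium channel gene.

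A second γ cluster lies on chromosome 17 with CACNG5, CACNG4 and CACNG1. CACNG4 (chr17:66964707-67033398), also a partner of glutamate receptors, measured 10.6, 10.8 and 9.42 scaled CPM after Japoflavone B and 37.2, 40.3 and 42.0 after DMSO. Its libraries separated widely, with a 3.88-fold fall (log2 fold change -1.96 ± 0.09, edgeR adjusted p = 1.27e-16). CACNG1 (chr17:67044554-67056797), the γ subunit of skeletal muscle, was below the count minimum with 31 counts over the Japoflavone B libraries and 1 over the DMSO libraries. CACNG5 had 2 counts after Japoflavone B and 14 after DMSO.

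Cytoplasmic β subunits bind the pore subunit and bring it to the membrane, and their genes moved both ways. CACNB3 rose 1.92-fold, with 36.9, 42.9 and 37.5 scaled CPM after Japoflavone B and 21.6, 20.4 and 18.6 after DMSO (edgeR adjusted p = 1.39e-10). CACNB1 fell 2.10-fold, with 4.27, 3.26 and 3.20 after Japoflavone B and 7.70, 7.99 and 6.94 after DMSO (adjusted p = 3.24e-06). In FPKM the order of the pair was the same in both groups, CACNB3 above CACNB1: 5.26 and 0.487 after Japoflavone B, 2.92 and 1.10 after DMSO. CACNB4 rose from a low level, with 98 counts after Japoflavone B and 48 after DMSO (log2 fold change 1.23 ± 0.34, adjusted p = 0.0024). CACNB2, with 78 counts after Japoflavone B and 51 after DMSO, passed narrowly (0.81 ± 0.34, adjusted p = 0.0353). It no longer passed when any library other than DMSO library 3 was left out (adjusted p 0.0527 to 0.102), and an antisense gene over it held 101 counts.

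Voltage-gated potassium channels were the largest class, and most of those tested did not pass. Of 40 pore-forming genes 15 were tested: 2 rose (13.3%), 2 fell (13.3%) and 11 missed the threshold. KCNG1, KCNF1 and KCNV1, among those that passed, encode electrically silent subunits that alter the gating of other voltage-gated potassium channels. KCNG1 rose 2.96-fold, with 24.4, 22.7 and 24.6 scaled CPM after Japoflavone B and 7.57, 7.73 and 9.16 after DMSO (log2 fold change 1.56 ± 0.11, edgeR adjusted p = 5.32e-13). KCNF1 fell 1.49-fold, with 3.44, 3.19 and 2.58 scaled CPM after Japoflavone B and 4.50, 5.56 and 3.50 after DMSO (adjusted p = 0.0178). That call was lost without Japoflavone B library 3 (adjusted p = 0.0879) and without DMSO library 2 (adjusted p = 0.152). KCNV1 fell 3.25-fold, with 7, 12 and 4 counts after Japoflavone B and 29, 36 and 23 after DMSO (adjusted p = 7.34e-04).

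Among the 11 genes that did not pass, KCNS3, a further silent subunit, was the most abundant at 2.79 ± 0.185 FPKM after Japoflavone B and 2.67 ± 0.0462 FPKM after DMSO. The others included KCNC4, KCND1, KCNG3, KCNH1, KCNH2, KCNH3, KCNH4, KCNQ1 and KCNQ5, whose group means ran from 0.0667 to 1.28 FPKM. The log2 fold changes of these 9 lay between -0.58 for KCNH4 and 0.18 for KCNH2, and each had groups that overlapped in scaled CPM. KCNC4 passed as lower without Japoflavone B library 3 (edgeR adjusted p = 0.00828), without DMSO library 3 (adjusted p = 0.0261) and with library totals as the scaling (adjusted p = 0.0251). KCNH2, the hERG channel of cardiac repolarisation, had 0.203 ± 0.104 FPKM after Japoflavone B and 0.193 ± 0.0379 FPKM after DMSO. Of the KCNA genes, the Shaker-type channels, none reached the count minimum.

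Potassium channels opened by calcium or sodium inside the cell moved little. KCNN4, the intermediate-conductance calcium-activated channel of epithelia and lymphocytes, measured 17.2, 20.9 and 18.9 scaled CPM after Japoflavone B and 13.0, 12.8 and 15.5 after DMSO. It rose 1.38-fold (log2 fold change 0.47 ± 0.11, edgeR adjusted p = 4.49e-04). KCNMA1, the large-conductance channel, measured 17.0, 17.6 and 19.1 after Japoflavone B and 21.5, 21.0 and 20.1 after DMSO, a 1.17-fold fall (adjusted p = 0.0379) that did not pass without Japoflavone B library 1 or 2 or DMSO library 1 or 2 (adjusted p 0.0718 to 0.166). Per exonic base the ratio of KCNN4 to KCNMA1 was 13.4 ± 1.37 after Japoflavone B and 8.37 ± 1.20 after DMSO. KCNN1, a small-conductance channel, and KCNT2, a sodium-activated channel, did not pass.

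**Figure D3:**
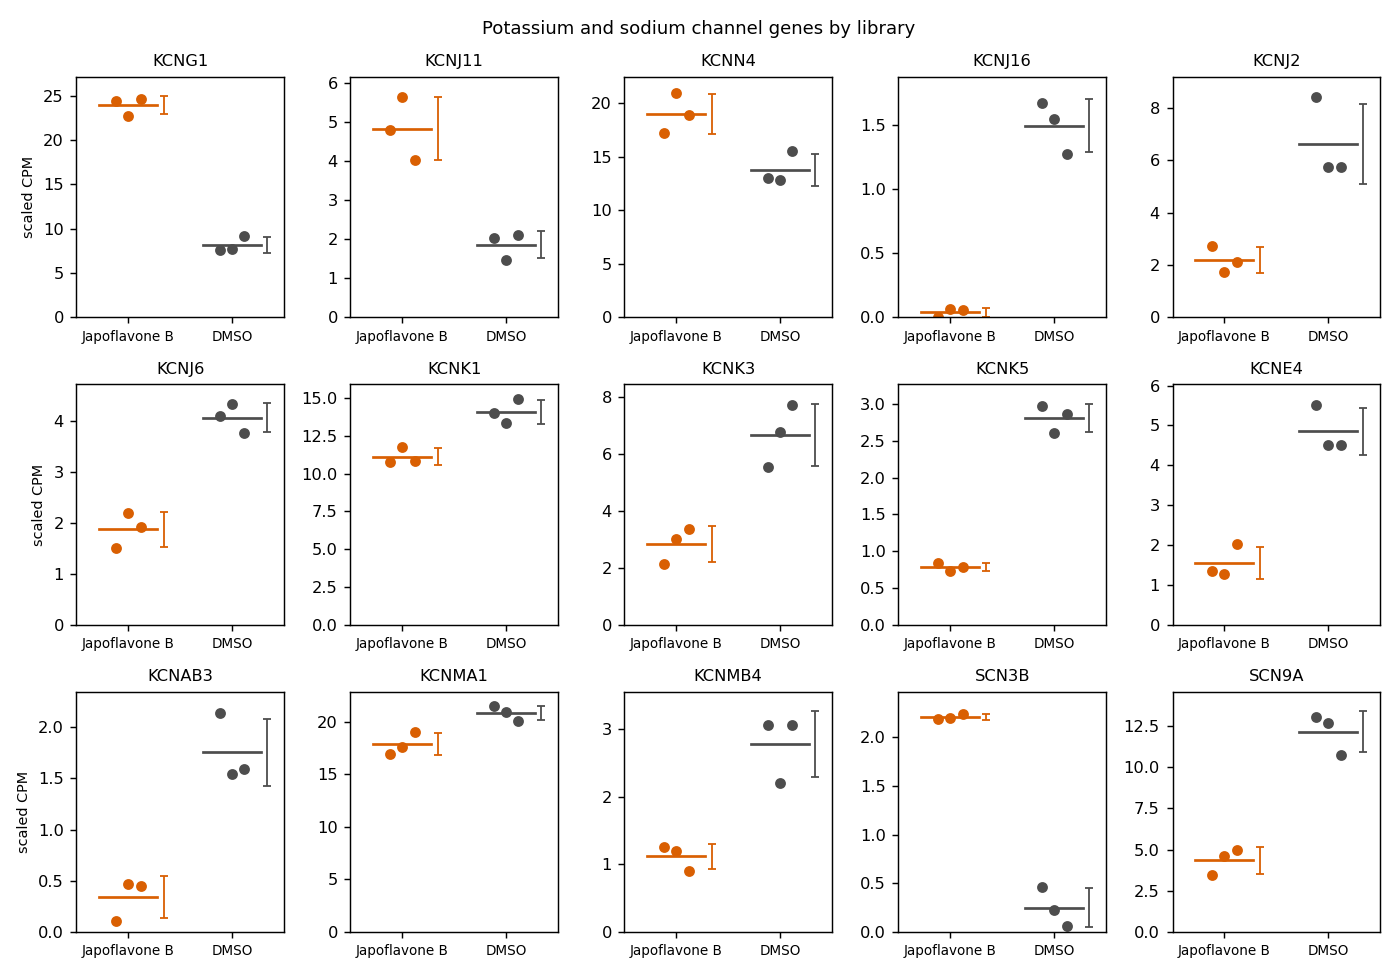
Scaled CPM of 15 potassium and sodium channel genes in each library (points), with group means (lines) and SD (bars, n = 3), Japoflavone B in orange and DMSO in grey. KCNG1, KCNJ11, KCNN4 and SCN3B lie higher after Japoflavone B and the other 11 genes lie lower.

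Inward rectifiers pass potassium mainly near and below the resting potential. Of 7 tested, 2 rose (28.6%) and 4 fell (57.1%). KCNJ11, the pore of the ATP-sensitive channel, measured 4.79, 5.65 and 4.04 scaled CPM after Japoflavone B and 2.04, 1.46 and 2.10 after DMSO. It rose 2.60-fold (log2 fold change 1.38 ± 0.23, edgeR adjusted p = 6.99e-06), while ABCC8, the sulfonylurea receptor that surrounds this pore, fell 1.89-fold (adjusted p = 7.26e-04). The ratio of KCNJ11 to ABCC8 per exonic base was 13.1 ± 2.39 after Japoflavone B and 2.66 ± 0.48 after DMSO. KCNJ11 overlaps NCR3LG1 on the opposite strand, which held 555 counts against 359 for KCNJ11. KCNJ8, another ATP-sensitive pore gene, had 4, 4 and 9 counts after Japoflavone B and 18, 18 and 9 after DMSO (-1.17 ± 0.48, adjusted p = 0.0323). It no longer passed without Japoflavone B library 1 or 2 or DMSO library 1 or 2 (adjusted p 0.0899 to 0.16).

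KCNJ16 (chr17:70053429-70135608) and KCNJ2 (chr17:70168673-70180044) are neighbours, and both fell. KCNJ16, a pH-sensitive subunit of kidney and inner ear channels, had 0, 1 and 1 counts after Japoflavone B and 36, 35 and 20 after DMSO. By library totals this is 42.5-fold fewer, with an exact 95% interval of 11.4 to 356 that covers counting error only. The fitted log2 fold change was -5.07 ± 0.63 (edgeR adjusted p = 5.74e-08), and -4.48 without Japoflavone B library 1. KCNJ2, the classical strong inward rectifier, measured 2.71, 1.73 and 2.13 scaled CPM after Japoflavone B and 8.40, 5.74 and 5.73 after DMSO, a 3.00-fold fall (adjusted p = 2.05e-07). KCNJ6, a G protein-gated channel, fell 2.19-fold, with 1.51, 2.19 and 1.91 scaled CPM after Japoflavone B and 4.08, 4.33 and 3.75 after DMSO (adjusted p = 1.03e-04). KCNJ14 passed as higher, 1.42-fold, with 1.35 ± 0.0306 FPKM after Japoflavone B and 1.02 ± 0.19 FPKM after DMSO (adjusted p = 0.0124), but not without DMSO library 1 (adjusted p = 0.074). It overlaps GRWD1 on the same strand, with 7863 counts against 560. KCNJ12, with 28 counts after Japoflavone B and 37 after DMSO, did not pass; its near copy KCNJ18 had 0 counts in all 6 libraries, and how the counting treated reads that fit both was not tested.

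Tandem-pore (K2P) channels carry the leak current that sets the resting potential. Of 4 tested, 3 fell (75%, against 35.4% of all genes) and none rose (against 34.7% of all genes). KCNK5, an acid-sensitive channel of epithelia linked to cell volume, measured 0.834, 0.732 and 0.785 scaled CPM after Japoflavone B and 2.97, 2.61 and 2.86 after DMSO. The treated libraries sat tightly together, 3.55-fold lower (log2 fold change -1.83 ± 0.30, edgeR adjusted p = 4.36e-06). KCNK3, an acid-sensitive leak channel, fell 2.35-fold, with 2.14, 2.99 and 3.36 scaled CPM after Japoflavone B and 5.52, 6.76 and 7.70 after DMSO (adjusted p = 3.79e-06). KCNK1, the most abundant of the class at 3.04 ± 0.127 FPKM after Japoflavone B and 4.14 ± 0.207 FPKM after DMSO, fell 1.27-fold (adjusted p = 0.00926). KCNK6 measured 5.05, 5.25 and 6.45 scaled CPM after Japoflavone B and 6.08, 5.34 and 4.45 after DMSO, which overlap (adjusted p = 0.739).

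Of 7 tested auxiliary subunits of potassium channels, 1 rose (14.3%, against 34.7% of all genes) and 5 fell (71.4%, against 35.4% of all genes), a difference from all genes that was not tested. KCNE4, a membrane subunit that inhibits KCNQ1, measured 1.35, 1.26 and 2.02 scaled CPM after Japoflavone B and 5.52, 4.50 and 4.52 after DMSO, a 3.12-fold fall (edgeR adjusted p = 6.71e-07). The KCNAB genes encode cytosolic β subunits with an aldo-keto reductase fold. KCNAB3 fell 5.27-fold, with 2, 7 and 8 counts after Japoflavone B and 46, 35 and 25 after DMSO (adjusted p = 1.96e-05). KCNAB2, the most abundant of the 3, fell 1.30-fold, with 1.47 ± 0.00577 FPKM after Japoflavone B and 2.05 ± 0.0971 FPKM after DMSO (adjusted p = 1.16e-04). KCNAB1 passed as higher with 42, 16 and 34 counts after Japoflavone B and 26, 19 and 7 after DMSO, groups that overlap in scaled CPM (log2 fold change 1.02 ± 0.37, adjusted p = 0.0163). Leaving out Japoflavone B library 1 or 3 or DMSO library 2 or 3 ended that call (adjusted p 0.0553 to 0.104). KCNMB4, the β4 subunit of the large-conductance channel, fell 2.47-fold, with 24, 18 and 16 counts after Japoflavone B and 66, 50 and 48 after DMSO (adjusted p = 2.46e-04). KCNIP2, a calcium-binding partner of KCND channels, had 35 counts after Japoflavone B and 73 after DMSO (-0.87 ± 0.39, adjusted p = 0.047), and passed no more when any library but Japoflavone B library 1 was left out (adjusted p 0.0625 to 0.219).

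Of 5 tested sodium channel genes, 1 rose (20%), 2 fell (40%) and 2 did not pass. SCN3B (chr11:123629187-123655244, minus strand) encodes an immunoglobulin-domain β subunit. It measured 2.19, 2.19 and 2.24 scaled CPM after Japoflavone B and 0.464, 0.221 and 0.0636 after DMSO, or 42, 33 and 40 counts after Japoflavone B and 10, 5 and 1 after DMSO. The treated libraries were alike and well above the solvent ones, 8.17-fold (log2 fold change 3.03 ± 0.43, edgeR adjusted p = 4.23e-07), the highest fold change of the 57 genes, and 3.78 on the log2 scale without DMSO library 1. Its mean level was 0.213 ± 0.00577 FPKM after Japoflavone B and 0.0267 ± 0.0208 FPKM after DMSO. SCN9A, a pore subunit best known from pain-sensing neurons, fell 2.83-fold, with 3.44, 4.59 and 4.99 scaled CPM after Japoflavone B and 13.0, 12.7 and 10.8 after DMSO (adjusted p = 1.17e-09). SCN8A measured 11.1, 11.0 and 11.2 after Japoflavone B and 15.5, 13.0 and 10.8 after DMSO and did not pass (adjusted p = 0.078), except without DMSO library 3 (adjusted p = 0.0119).

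**Figure D4:**
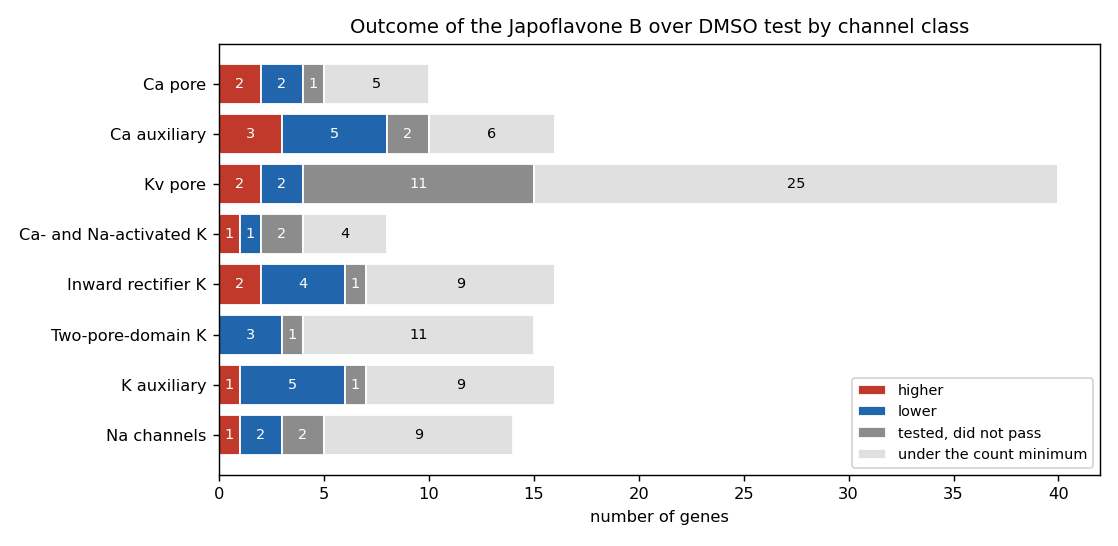
Number of channel genes (horizontal axis) in each class by outcome of the Japoflavone B over DMSO test: higher, lower, tested without passing, and under the count minimum. Of 40 voltage-gated potassium pore genes 25 were under the minimum and 11 did not pass. Tandem-pore channels had 3 lower genes and none higher of 4 tested. Among all genes tested, 34.7% were higher and 35.4% lower.

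Below the count minimum, 9 genes passed when all genes with a count were fitted, and are named here after their values were seen. In that fit 15 of 113 channel genes were higher and 26 lower, and of all 31790 genes 5823 were higher and 6092 lower. The share of all genes below the minimum that passed was not taken. Of the 9 channel genes, KCNK13 also reached the minimum and passed without Japoflavone B library 3 or any single DMSO library (edgeR adjusted p 2.83e-05 to 2.90e-04). KCNIP3 did so without Japoflavone B library 3 (adjusted p = 0.019) or DMSO library 2 (adjusted p = 0.0129). KCNA7 was not among the 9 (edgeR adjusted p = 0.1265 with all genes with a count fitted). It had 3, 9 and 18 counts after Japoflavone B and 10, 4 and 1 after DMSO, groups that overlap in scaled CPM. KCNA7 reached the minimum and passed without Japoflavone B library 1 (adjusted p = 0.0189) or DMSO library 1 (adjusted p = 0.0163). KCNK13, a tandem-pore channel, had 31 counts after Japoflavone B and 0 after DMSO, at least 11.1-fold higher by library totals against a floor of 3 counts over the DMSO libraries. KCNS1, a silent potassium channel subunit, had 33 counts after Japoflavone B and 1 after DMSO, a ratio of 35.4 with an exact 95% interval of 5.92 to 1439. For CACNG1, with 31 counts after Japoflavone B and 1 after DMSO, the ratio was 33.2 with an interval of 5.54 to 1354. Both intervals cover counting error only, not the spread between libraries. KCND3, a transient-current channel, had 16 counts after Japoflavone B and 1 after DMSO. The lower ones were CACNA2D3, KCNIP3, KCNK12, KCNK15 and SCN3A, with 0 to 12 counts after Japoflavone B and 11 to 39 after DMSO. Each of these values rests on few reads.

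Some values above may include reads of other genes. Of the 57 tested genes, 38 overlap another gene of the table, 32 of them a gene on the opposite strand, and 14 overlap a gene with at least 10% of their own counts. Overlap was taken over whole gene spans, introns included, and shared exons were not examined. The sources used here do not say whether strand was used in counting. How many reads such pairs share, if any, therefore cannot be told. Beside those already named, KCNAB2 overlaps NPHP4, which held 2005 counts against 3444, and KCNAB1 an antisense gene with 101 counts against 144. KCNH3, KCNMB3 and KCNQ1, none of which passed, overlap MCRS1, PIK3CA and KCNQ1OT1. KCNIP2, KCNJ2 and KCNJ8 overlap antisense genes with 41, 64 and 10 counts, below their own.

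Many channel genes are long. Tested channel genes span a median of 52.0 kb, against 28.1 kb for all genes tested. Spearman's correlation of span and log2 fold change was 0.04 over the 57 genes and -0.04 over all 16082, given as a description since genes share libraries. Of 21 channel genes of at least 100 kb, 5 rose (23.8%) and 8 fell (38.1%), while of all 2895 tested genes of that length 881 rose (30.4%) and 1260 fell (43.5%).

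Other genes of ion transport, 152 in 8 lists, were set beside the channels. Of 93 tested, 29 were higher after Japoflavone B (31.2%, against 34.7% of all genes tested) and 42 lower (45.2%, against 35.4%), and the counts of single lists below stand against the same shares of all genes. The list of proteins that bind or regulate channels had 4 higher and 9 lower of 16. The 4 were RRAD, GEM and REM2, small GTPases that bind β subunits and inhibit voltage-gated calcium channels, and STAC, an adaptor of L-type channels. RRAD measured 8.13, 8.85 and 8.47 scaled CPM after Japoflavone B and 0.278, 0.309 and 0.255 after DMSO, 29.2-fold higher (log2 fold change 4.87 ± 0.26, edgeR adjusted p = 1.83e-15). The treated libraries held 440 RRAD counts and the solvent libraries 17. GEM rose 3.38-fold, with 34.2, 36.3 and 34.7 scaled CPM after Japoflavone B and 10.3, 11.5 and 9.04 after DMSO (adjusted p = 3.26e-15). REM2 had 88 counts after Japoflavone B and 29 after DMSO (adjusted p = 1.65e-04), and STAC 304 after Japoflavone B and 159 after DMSO (adjusted p = 8.56e-06). The fallers of this list included all 3 calmodulin genes, whose product is the calcium sensor of KCNN4 and of several calcium channels. CALM3 fell 2.04-fold, with 36.7 ± 1.18 FPKM after Japoflavone B and 80.3 ± 3.16 FPKM after DMSO (adjusted p = 3.38e-16). NEDD4L, a ubiquitin ligase that removes sodium channels from the membrane, fell 2.61-fold (adjusted p = 1.19e-16). REST, a repressor of neuronal genes that include sodium channels, had 6.05 ± 0.435 FPKM after Japoflavone B and 6.64 ± 0.366 FPKM after DMSO and did not pass (adjusted p = 0.674).

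**Figure D5:**
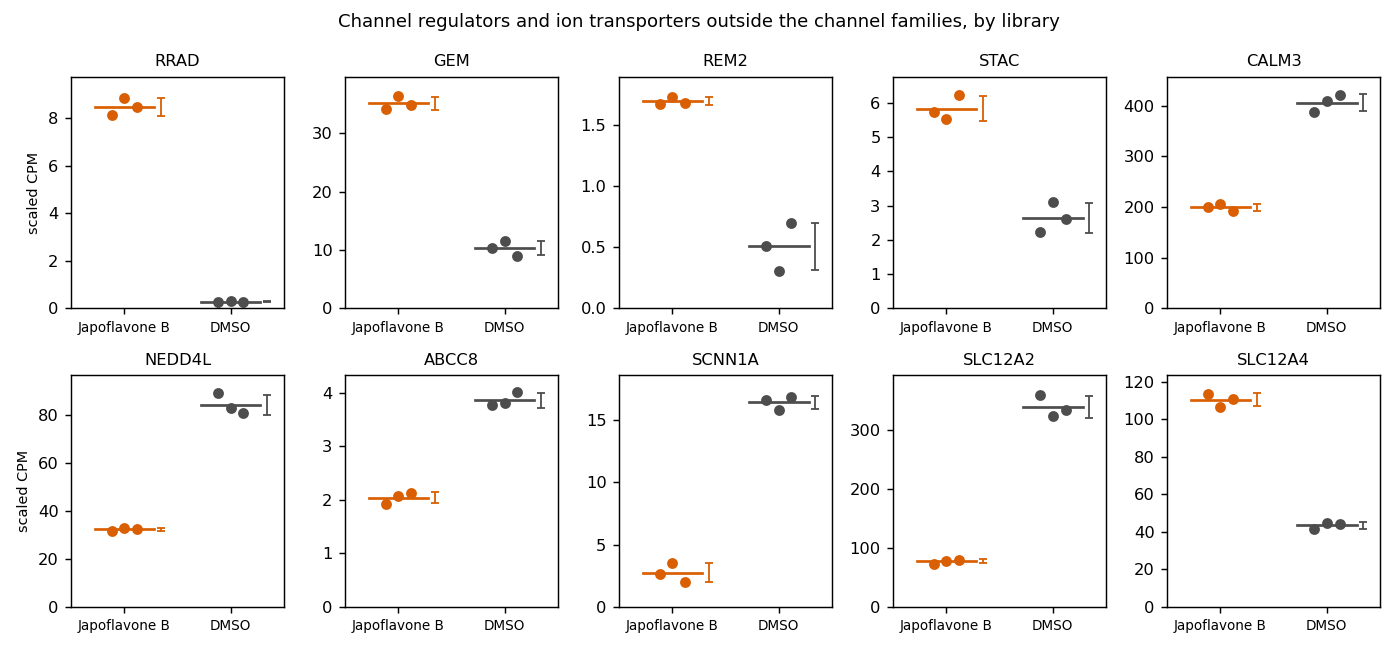
Scaled CPM of 10 genes that regulate channels or transport ions, in each library (points), with group means (lines) and SD (bars, n = 3), Japoflavone B in orange and DMSO in grey. RRAD, GEM, REM2, STAC and SLC12A4 lie higher after Japoflavone B; CALM3, NEDD4L, ABCC8, SCNN1A and SLC12A2 lie lower.

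Epithelial and acid-sensing sodium channels had no higher and 4 lower genes of 6 tested. SCNN1A, the pore subunit of the epithelial sodium channel, measured 2.66, 3.52 and 2.02 scaled CPM after Japoflavone B and 16.6, 15.9 and 16.9 after DMSO, a 6.07-fold fall (edgeR adjusted p = 1.88e-14). SCNN1B, its partner subunit, fell 3.67-fold (adjusted p = 4.65e-09), and SCNN1D and ASIC3 also fell. Cation-chloride and sodium-proton transporters moved both ways, 3 higher and 3 lower of 10. SLC12A2, which loads cells with sodium, potassium and chloride, measured 73.1, 77.5 and 79.8 scaled CPM after Japoflavone B and 359, 323 and 334 after DMSO, a 4.41-fold fall (adjusted p = 2.42e-22). SLC12A4, a potassium-chloride exporter, rose 2.54-fold, with 114, 107 and 111 after Japoflavone B and 41.5, 44.9 and 44.3 after DMSO (adjusted p = 3.33e-17), and SLC12A7, an exporter of the same kind, rose 1.60-fold (adjusted p = 1.65e-09).

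Store-operated and endoplasmic calcium handling had 6 higher and 8 lower of 17 tested. ITPR3, a calcium release channel, rose 1.88-fold, while its relative ITPR2 fell 3.36-fold and ORAI2, a store-operated pore, fell 2.32-fold (edgeR adjusted p 4.31e-14 to 7.36e-13). Chloride channels and volume regulators had 8 higher and 4 lower of 16, with CLCN5 up 2.09-fold, and LRRC8D, a subunit of the volume-regulated anion channel, down 2.28-fold. TRP channels had 3 higher and 7 lower of 13, with PKD1 up 1.78-fold and PKD2, the channel it binds, down 1.85-fold. Sodium-potassium pump genes had 3 higher and 2 lower of 6, all with small changes, such as ATP1B3 down 1.31-fold and FXYD5 up 1.27-fold. Voltage-gated relatives under other symbols had 2 higher, HCN2 and HCN4, and 5 lower of 9, TPCN1 and TPCN2 among them.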

How the data were processed

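RNA of A549 cells was sequenced after Japoflavone B or DMSO, 3 libraries each. The deposited table holds whole-number counts per gene made by the authors, and the authors' FPKM, which recomputation from counts, exonic gene size and column totals matched to 0.005. Cutadapt 1.9.1, HISAT2 2.0.1, HTSeq 0.6.1, DESeq2 and GRCh38 are named in the submitters' processing notes, without role or order; annotation release and strand setting are not given in the sources used here. Groups come from the treatment labels.

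Counts were filtered (filterByExpr, minimum count 10, minimum total 15), scaled by trimmed-mean factors and tested with edgeR 4.0.16 in R 4.3.3 (quasi-likelihood, group as the single term), p-values being adjusted by Benjamini and Hochberg's method over all 16082 genes that passed the filter. The SE of a log2 fold change was its absolute value divided by the square root of the F statistic. It is approximate, above all for genes with few counts in a group. The workflow was also run on simulated data in which few genes changed, equally in both directions. Most genes passed in the data here, so that run does not check the scaling or the calls. The channel genes, lists and alternatives were chosen with earlier results of these data known. Named channel genes were those past the threshold at 2-fold with 10 counts in each library of the higher group, up to 4 per class by adjusted p, the 8 most abundant, and members of small counts, 42 in all, of which some are not reported here; companions were up to 3 per list by adjusted p, and any other gene was named after its values were seen. Alternatives used DESeq2 1.42.0 and limma 3.58.1. Precision rests on 15298531 to 21744407 counts per library.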

Additional observations from a re-analysis of the deposited data

How the results depend on the processing

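Of the 36 channel genes past the threshold, 26 passed under every alternative that tested them and all 36 kept their sign. Those that did not always pass included CACNA1A, CACNB2, CACNB4, KCNAB1, KCNF1, KCNIP2, KCNJ8, KCNJ14 and KCNMA1; CACNA1A and CACNB4 were lost only with limma on FPKM. Counts of channel genes were 12 higher and 24 lower, and 11 to 12 higher and 21 to 25 lower with each library left out in turn. Limma on log2(FPKM + 1) and on log2(FPKM + 0.1) gave 7 higher channel genes each, and 19 and 18 higher companion genes in that order, against 29; the cause was not tested. Library totals in place of trimmed-mean factors shifted the median of all genes by -0.10 log2 and gave 11 higher and 26 lower channel genes, SCN8A among the lower (adjusted p = 0.0169). Over all genes, no filter gave 5823 higher and 6092 lower of 31790. Among channel genes, DESeq2 called 11 higher and 21 lower, a minimum count of 30 left 8 and 19 of 38 tested, and no filter gave 15 and 26 of 113. Scaling by DESeq2 size factors or upper quartiles, and leaving out mitochondrial genes, gave 12 and 24. KCNK6 and KCNT2, which did not pass, changed sign: their log2 fold changes were -0.035 and -0.056 with library totals, -0.012 and -0.012 with log2(FPKM + 1), and -0.022 and -0.050 with log2(FPKM + 0.1). With a library left out, KCNK6 lay between -0.046 and 0.18 and KCNT2 between -0.15 and 0.25. CACNA1H, CACNA2D2, KCNG3, KCNH2, KCNJ12, KCNQ1 and KCNQ5, which did not pass either, also changed sign in part of the alternatives. KCNQ1 kept its sign in 10 of 15.

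Replicate numbers showed no sign of pairing: deviations of same-numbered libraries from their group means correlated at 0.02, 0.00 and -0.06. Those of differently numbered libraries correlated at -0.098 to 0.093. With 3 libraries per group these values cannot show that the libraries were unpaired. With the replicate number as a block, 11 channel genes were higher and 22 lower, and 33 of the 36 calls remained. The calls of CACNB2, KCNIP2 and KCNJ8 were those lost (adjusted p 0.0573, 0.0525 and 0.0513). Low counts limit most channel genes: 78 of 135 were under the count minimum, of which 22 had no counts and 9 passed with no filter. The share of all genes under the minimum that passed was not taken.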
